A study of Mus musculus with 6 samples.

Results

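CD4 T cells of the mouse colonic lamina propria that carried a Th17-like transcriptome and neither fluorescent reporter were divided by whether interferon gamma RNA was seen in the cell. Members were the tdTomato-GFP- cells that had been assigned to a hashed replicate and that the authors' clustering placed in cluster 1, 2, 3, 12 or 13. They numbered 1123 of the 23595 cells in the series, with 600, 294 and 229 cells in replicates 1, 2 and 3. Cells with 1 or more unique molecular identifiers (UMIs, counted RNA molecules) of Ifng formed the Ifng-positive side, 663 cells, and cells with 0 formed the Ifng-negative side, 460 cells. Ifng therefore chose the sides, its values are given as description with no test, and it was left out of the gene tests.

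All cells of the series came from animals that carried Foxp3{delta}EGFPiCre/WT together with R26lsl-tdTomato/wt, whose age is not given in the sources used here. By its name the allele places EGFP and iCre in Foxp3, the gene of the transcription factor that defines regulatory T cells. Where Cre has acted, tdTomato is switched on. The other Foxp3 allele is wild type by the label, and 79 of the tdTomato-GFP- Th17-like cells held a Foxp3 UMI. What the delta in the name means for Foxp3 protein was not tested. The tdTomato-GFP- gate held cells with neither reporter, and the tdTomato+GFP+ gate, used for comparison, held cells with both. For each gate, 3 biological replicates were hashed and loaded together on 1 lane, and the gate therefore cannot be told apart from its lane, whereas both sides of a replicate shared lane and hashtag. The labels do not say whether a replicate was 1 animal or a pool.

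Th17 cells are helper T cells that secrete interleukins 17A, 17F and 22, which act on epithelium in barrier defence. Interferon gamma is the signature cytokine of Th1 cells, which use T-bet (Tbx21) and the interleukin-12 receptor. Cells that make both cytokines are known from the inflamed gut, where Th17 cells exposed to interleukins 12 and 23 can take up interferon gamma expression.

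Receptor junctions mark clones, since daughter cells inherit the same rearranged alpha and beta chains. The junctions below were read from the deposited receptor table (5′ to 3′, lower case for the first and last codons, capitals for the bases between them). They were chosen because they show the range of the Ifng split inside a clone: the largest clone of each replicate, a clone that was nearly even, the only clone of 5 or more cells without an Ifng-negative cell, and the one with the lowest Ifng-positive share. The first 2 clones of replicate 2 carried the same beta junction with different alpha chains. Only the first listed alpha chain of a cell was used, so whether they were 1 clone with 2 alpha chains was not tested.
Replicate 1, 35 of 39 cells Ifng-positive, alpha TRAV16 TRAJ39: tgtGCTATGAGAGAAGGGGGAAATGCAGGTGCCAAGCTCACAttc
the same clone, beta TRBV3 TRBJ2-7: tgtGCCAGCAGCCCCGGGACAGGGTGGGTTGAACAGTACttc
Replicate 1, 9 of 19 cells Ifng-positive, alpha TRAV6-6 TRAJ39: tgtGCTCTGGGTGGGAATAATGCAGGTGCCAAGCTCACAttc
the same clone, beta TRBV20 TRBJ1-4: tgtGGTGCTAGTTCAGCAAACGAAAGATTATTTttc
Replicate 1, 11 of 11 cells Ifng-positive, alpha TRAV9N-4 TRAJ16: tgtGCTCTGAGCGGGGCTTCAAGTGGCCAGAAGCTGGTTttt
the same clone, beta TRBV20 TRBJ2-4: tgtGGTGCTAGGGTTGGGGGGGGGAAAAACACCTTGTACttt
Replicate 2, 20 of 24 cells Ifng-positive, alpha TRAV3D-3 TRAJ16: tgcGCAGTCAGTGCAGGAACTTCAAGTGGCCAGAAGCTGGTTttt
Replicate 2, 12 of 15 cells Ifng-positive, alpha TRAV7N-6 TRAJ6: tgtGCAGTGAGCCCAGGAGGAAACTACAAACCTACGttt
both of these clones, beta TRBV15 TRBJ2-1: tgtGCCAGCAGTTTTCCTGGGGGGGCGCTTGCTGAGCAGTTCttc
Replicate 3, 15 of 16 cells Ifng-positive, alpha TRAV9-2 TRAJ13: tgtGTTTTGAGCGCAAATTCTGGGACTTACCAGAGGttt
the same clone, beta TRBV1 TRBJ2-4: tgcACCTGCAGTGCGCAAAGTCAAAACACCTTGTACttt
Replicate 3, 1 of 6 cells Ifng-positive, alpha TRAV6-6 TRAJ21: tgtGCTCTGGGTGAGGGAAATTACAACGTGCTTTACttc
the same clone, beta TRBV12-2+TRBV13-2 TRBJ1-1: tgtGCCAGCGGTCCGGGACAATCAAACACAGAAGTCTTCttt

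The cells carried the RNAs of their label. Il17a was at 10889 to 13447 CPM (UMIs scaled to a common library total, here the plain total without hashtags) in the 6 sums of cells, against 244 to 434 CPM in the other clusters of the gate. Il17f stood at 1376 to 1950 CPM against 56.9 to 67.5 CPM in those clusters. The cells were chosen by clusters built on such RNAs, so these values are a description. The 6 sums held 408278 to 1590719 UMIs. Ifng-positive cells were slightly deeper, with medians of 3991.5, 4036 and 4124.5 UMIs per cell in replicates 1 to 3 against 3883.5, 3571 and 3703 in Ifng-negative cells. Cluster 1 made up 25.7, 27.6 and 29.5% of Ifng-positive cells and 18.4, 21.2 and 24.7% of Ifng-negative cells. The 2 lanes shared 174 barcodes.

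Of markers of other cell types, the sum of 14 B and plasma cell genes was 337 CPM in the Ifng-positive cells of replicate 1 and 55.4 to 83.5 CPM in the other 5 sums, with Ms4a1, Ighd and Pax5 among the genes at 0. Ncr1 and Eomes were at 0 among the NK and innate lymphoid markers, whose sum was 757 to 824 CPM in positive and 836 to 936 CPM in negative cells. The myeloid sum ran from 516 to 773 CPM in positive and from 570 to 1094 CPM in negative cells, with Itgam at 0. Gamma delta T cell markers summed to 291 to 365 CPM in positive and 225 to 446 CPM in negative cells, and Trdc, their delta constant gene, had 25 UMIs in 13 cells, all in replicate 3. The part these RNAs play in the gene differences was not tested.

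Interferon gamma RNA was common in these cells. The Ifng-positive share was 58.3, 61.6 and 57.6% in replicates 1, 2 and 3 (59.2% ± 2.09, SD, n = 3 hashed replicates), and the replicates lay close together. Positive cells held a median of 4 Ifng UMIs. At the threshold, 152 of the 663 positive cells (22.9%) had exactly 1 UMI and 460 cells lay just outside with 0, while 132 cells had 10 or more and the highest had 111. When each cell was drawn down to 2000 UMIs, the expected share was 48.9% ± 2.72 (SD, n = 3), with 28 shallower cells left out. The share therefore moved with depth, and a cell with 0 UMIs is one in which Ifng RNA was not detected.

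Among the larger clusters the share was 65.6% in cluster 1, 54.4% in cluster 2 and 60.1% in cluster 3. Cluster 6 of the same gate had 52.5%, and cluster 5 had 6.82%. Cluster 9 served for the background of free RNA, since 84.5% of its cells had a UMI of Ccr7 and 90.2% one of Tcf7, genes of naive and central memory cells, which make little interferon gamma. There 1.71% of cells had an Ifng UMI (12 of 703, exact 95% interval 0.885 to 2.96%, counting error only) at a median of 3552 UMIs per cell, against 3957 in the Th17-like cells. In the tdTomato+GFP+ gate, the same 5 clusters had 16.3% (921 of 5665 cells), or 11.1% expected at 2000 UMIs.

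**Figure D1:**
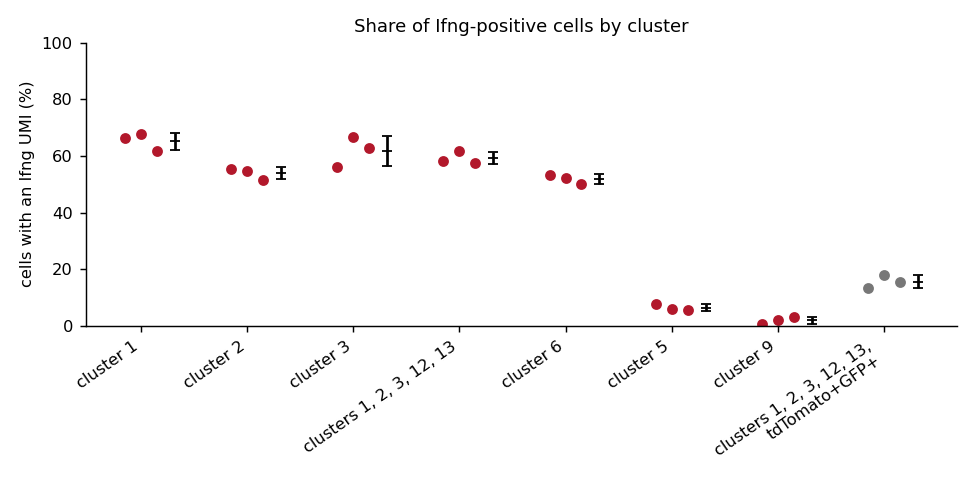
Share of cells with an Ifng UMI (percent) in each hashed replicate (points) with the mean and SD beside them, for clusters of the tdTomato-GFP- gate (red) and the 5 Th17-like clusters of the tdTomato+GFP+ gate (grey). The Th17-like tdTomato-GFP- cells sit between 57.6 and 61.6%, near cluster 6 and far above clusters 5 and 9.

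Among the other genes, the Ifng-positive side carried more RNA of Nkg7, Il12rb2, Csf1, Csf2 and Il22, and less of Il10, Pxdc1, Ccr6 and Ccr4. For Csf2 and Il22 the shares of cells with a UMI overlapped between the sides. Of the RNAs of the Th17 program, Il17a, Il17f and Rora did not pass, which does not show that they were equal. Both sides came from clusters built on such RNAs. Sums per replicate and side were compared in edgeR with the hashed replicate as a block, for 6964 genes that passed the low-count filter. At an adjusted p below 0.05, 48 genes were higher (0.689%) and 63 were lower (0.905%) in Ifng-positive cells, 111 in all (1.59%). The sides did not overlap for 30 of the 48 and 41 of the 63, where 6% of all tested genes lay wholly higher and 6.35% wholly lower.

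These counts depended on the treatment of the pairs. Without the pairing 3 genes were higher and 2 lower, and DESeq2 with the same pairing called 1 in each direction (Nkg7 and Il10). For 50 of the 111 called genes the spread of the 3 pair differences gave an SE over 1.5 times the fitted one. The adjusted p of those genes is smaller than the pairs alone would give. For the other calls too, the adjusted p rests on spread estimates shared across genes and not on the 3 pairs alone. Counting cells in place of UMIs left 0 calls in edgeR, with 198 genes at an unadjusted p below 0.05. All 111 kept their direction without the pairing and in DESeq2, but both fits used the same sums, so this is no separate support.

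**Figure D2:**
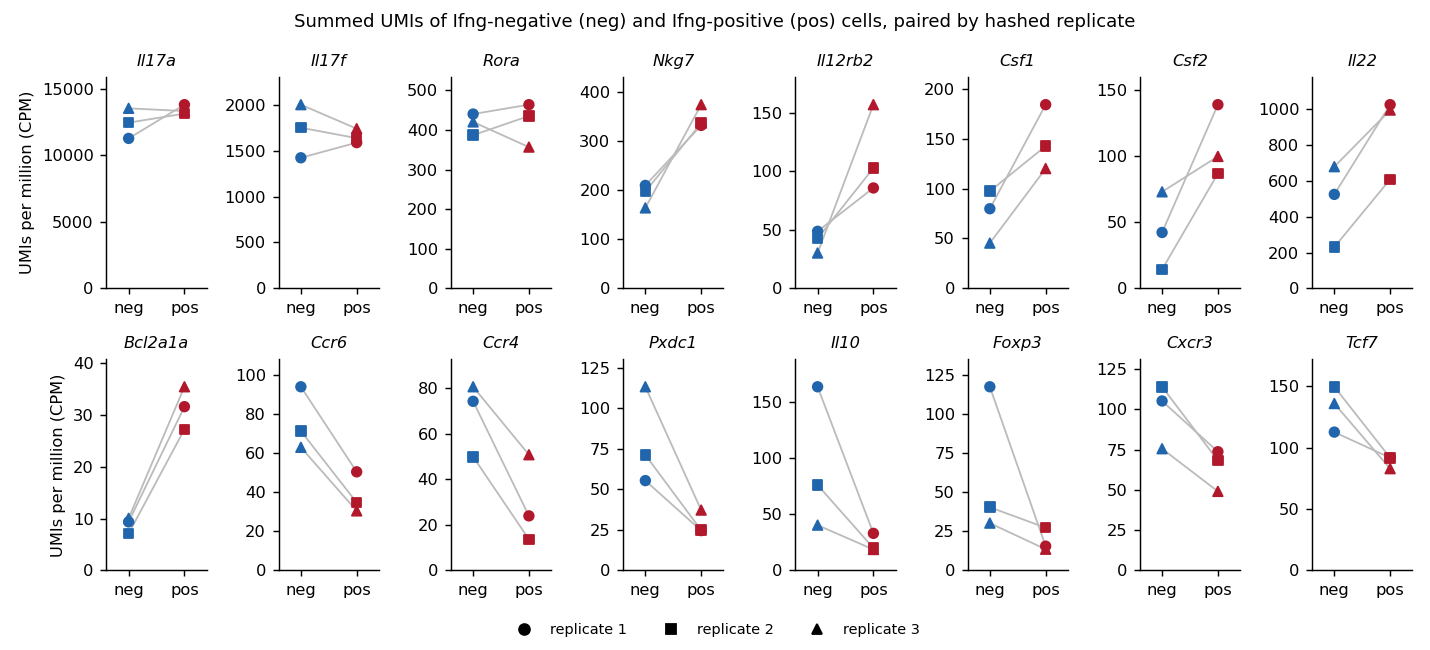
CPM on TMM-adjusted totals of 16 genes in the summed Ifng-negative (neg, blue) and Ifng-positive (pos, red) cells, with lines joining the 2 sides of a hashed replicate. Il17a and Rora lie at similar heights on both sides, while Nkg7, Il12rb2 and Csf1 lie higher and Ccr6, Pxdc1 and Il10 lower on the positive side in all 3 replicates.

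Most of the Th17 genes themselves did not pass. Il17a was at 13798, 13126 and 13318 CPM (on TMM-adjusted totals, as all levels from here on unless stated) in the Ifng-positive cells of replicates 1 to 3 and at 11264, 12448 and 13524 CPM in the Ifng-negative cells. Its log2 fold change of positive over negative cells was 0.12 ± 0.04 (SE), with an adjusted p of 0.0756 in edgeR, and it lay higher in 2 of 3 pairs. Without replicate 2 (adjusted p = 0.0462) or without replicate 3 (adjusted p = 0.00602) Il17a passed the threshold. Across 22 alternative settings its log2 fold change ran from 0.03 to 0.26, and it passed as higher in 6 of them. Il17a UMIs were found in 93.6% ± 1.23 of positive and 87.9% ± 5.41 of negative cells (SD, n = 3; exact sign-flip p = 0.25, the smallest that 3 pairs allow), against 2.28% of cluster 9. Drawn down to 2000 UMIs, the shares were 93.5 and 88.2%.

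Il17f (log2 fold change -0.04, adjusted p = 0.951), Rora, a nuclear receptor of the Th17 program (0.02, adjusted p = 0.981), and Il23r, the interleukin-23 receptor chain (-0.23, adjusted p = 0.796), did not pass. For Rora the 6 sums were 464, 435 and 357 CPM in positive and 440, 387 and 420 CPM in negative cells, which overlap. Of the 18 Th17 effector and identity genes tested, 1 rose and 1 fell, and the median log2 difference was 0.11, beside -0.0061 over all genes. For this list and each list below, the shares over all tested genes were 0.689% higher and 0.905% lower.

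The Th17 gene that rose was Il22, which encodes the interleukin that acts on epithelial cells. It stood at 1026, 609 and 996 CPM in positive cells and at 525, 230 and 679 CPM in negative cells, higher in all 3 pairs, although the sides overlapped because replicates differed in level. Its log2 fold change was 0.93 ± 0.07 (SE; adjusted p = 1.21e-26). The 3 pair differences were 0.96, 1.395 and 0.55 and gave an SE of 0.24. Without the pairing the adjusted p was 0.852, and without cells that held a Foxp3 UMI it was 0.418. Il22 UMIs were seen in 26.0% ± 4.40 of positive and 22.8% ± 6.16 of negative cells (SD, n = 3). By Ifng UMIs per cell, its mean was 464, 937, 584 and 1030 CPM (plain totals without Ifng) at 0, 1, 2 to 4 and 5 or more, with no steady order. Il22 (chr10:118204942-118210047, GRCm38) and Ifng (chr10:118441046-118445892) are neighbours, 231 kb apart.

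Ccr6, the receptor for the chemokine CCL20 and a classic Th17 surface marker, fell. The positive cells had 50.4, 34.7 and 30.4 CPM and the negative cells 93.8, 71.2 and 62.9 CPM, with no overlap. The log2 fold change was -0.95 ± 0.19 (SE; adjusted p = 0.000246). It did not pass without replicate 1 (adjusted p = 0.0892) or without the pairing (adjusted p = 0.0710). Ccl20 itself ran from 424 to 1232 CPM in positive and from 433 to 724 CPM in negative cells and did not pass (adjusted p = 0.877), though it did without replicate 1 (adjusted p = 2.03e-06) and without replicate 2 (adjusted p = 2.51e-07).

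Nkg7, a membrane protein of cytotoxic granules, was at 331, 336 and 374 CPM in positive and at 209, 197 and 164 CPM in negative cells. Every positive sum lay above every negative one. The log2 fold change was 0.82 ± 0.10 (SE; adjusted p = 6.84e-13), and the call stood in 19 of 22 alternatives. UMIs of Nkg7 were seen in 41.7% ± 6.14 of positive and 23.1% ± 2.22 of negative cells, against 3.13% of cluster 9, and in 31.7 and 17.5% at 2000 UMIs.

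Il12rb2, the signalling chain of the interleukin-12 receptor, was at 85.9, 103 and 157 CPM in positive and at 48.8, 42.7 and 30.2 CPM in negative cells. Again the sides did not overlap, and the difference was widest in replicate 3. Its log2 fold change was 1.28 ± 0.18 (SE; adjusted p = 7.52e-10), with pair differences of 0.79, 1.23 and 2.31 and an adjusted p of 0.0710 without the pairing.

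Of the 17 Th1 genes tested, 4 rose and 1 fell, beside 0.689% and 0.905% of all tested genes. Their median log2 difference was 0.14. Beside Il12rb2, the rises included Cxcr6 (0.24 ± 0.06), a tissue homing receptor, and Fasl (0.53 ± 0.15), the death receptor ligand. Neither passed without replicate 1, where the adjusted p was 0.899 for Cxcr6 and 0.797 for Fasl, nor did Cxcr6 without replicate 2 (adjusted p = 0.133).

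Tbx21, which encodes T-bet, did not pass. It stood at 65.9, 75.6 and 52.4 CPM in positive and at 38.5, 73.6 and 30.2 CPM in negative cells, with a log2 fold change of 0.53 ± 0.20 (SE; adjusted p = 0.258), and the levels were low and overlapped. Stat4, the signal transducer of interleukin 12 (0.12, adjusted p = 0.878), Runx3, a partner of T-bet (0.14, adjusted p = 0.835), and Il18rap, an interleukin-18 receptor chain (0.51, adjusted p = 0.157), did not pass either.

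Cxcr3, the receptor most used to mark Th1 cells, went the other way. It was at 73.6, 68.2 and 49.0 CPM in positive and at 105, 114 and 75.5 CPM in negative cells, with no overlap between the sides. The log2 fold change was -0.60 ± 0.16 (SE; adjusted p = 0.0207), and the call was lost without replicate 1 (adjusted p = 0.284), without replicate 2 (adjusted p = 0.253) and without replicate 3 (adjusted p = 0.0789).

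Of 6 cytotoxic genes tested from a list of 17, 3 rose and 0 fell: Nkg7, Fasl and Ctsw, the protease cathepsin W. Ctsw rose by 0.60 ± 0.16 on the log2 scale, but not without replicate 1 (adjusted p = 0.908) or replicate 3 (adjusted p = 0.112). Gzmb, the protease granzyme B, ran from 113 to 169 CPM in positive and from 88.1 to 314 CPM in negative cells and did not pass (adjusted p = 0.954), though without replicate 2 it passed as lower (adjusted p = 4.37e-08). The chemokines Ccl4 and Ccl5 did not pass, and Eomes, Gzmk, Ccl3 and Xcl1 were below the low-count filter.

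Csf1 and Csf2, which encode colony-stimulating factors, were called higher. Csf1, the macrophage colony-stimulating factor, was at 184, 143 and 120 CPM in positive and at 79.8, 97.3 and 45.3 CPM in negative cells, without overlap. It rose by 1.05 ± 0.15 on the log2 scale (adjusted p = 9.91e-10), also with each replicate left out in turn. Without the pairing its adjusted p was 0.0906.

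Csf2, the granulocyte-macrophage factor tied to pathogenic Th17 cells, was at 139, 86.8 and 99.7 CPM in positive and at 42.2, 14.2 and 73.0 CPM in negative cells. The log2 fold change was 1.47 ± 0.18 (SE; adjusted p = 5.49e-13). Few cells held a Csf2 UMI: 49 of 663 positive and 28 of 460 negative cells, and 1 positive cell held 133 of the 344 UMIs of its side. The share of cells with a Csf2 UMI was 7.10% ± 1.58 in positive and 7.02% ± 3.77 in negative cells (exact sign-flip p = 1), against 0.142% of cluster 9. Csf2 did not pass without the pairing (adjusted p = 0.623) or with 1 cell per clonotype (adjusted p = 0.804).

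Of 15 tested genes of a pathogenic Th17 signature, 4 rose and 0 fell, with a median log2 difference of 0.19. Beside Il22 and Csf2 these were Cxcl3, a neutrophil chemokine (0.74 ± 0.10), and Lgals3, a galectin (0.50 ± 0.13). The sums of Cxcl3 were 645, 784 and 296 CPM in positive and 431, 313 and 252 CPM in negative cells, so the sides overlapped. A single cell gave 337 of the 1806 Cxcl3 UMIs of the positive side. Of the non-pathogenic signature, 5 genes were tested and Il10 alone fell, with 0 rising.

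Among 13 effector cytokine genes tested, 3 rose and 3 fell, with a median of 0.044. Tnf rose by 0.46 ± 0.13 on the log2 scale (adjusted p = 0.0428), in 2 of 3 pairs, and was not called without replicate 1 (adjusted p = 0.823) or replicate 2 (adjusted p = 0.307). Il21, a helper cytokine, was higher in all 3 pairs, at 159, 126 and 117 CPM against 96.7, 107 and 106 CPM, but did not pass (0.46 ± 0.14, adjusted p = 0.0599). It passed without replicate 3 (adjusted p = 0.0433). Il2 fell by 1.702 on the log2 scale (adjusted p = 0.0153) from 41 UMIs in 12 negative cells against 18 UMIs in 8 positive cells, and was lower in only 2 of 3 pairs.

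The largest fall was that of Il10, the immunoregulatory cytokine. Its levels were 32.9, 19.8 and 18.6 CPM in positive and 163, 75.9 and 40.3 CPM in negative cells, with no overlap, and replicate 1 had the highest negative sum. The log2 fold change was -2.08 ± 0.20 (SE; adjusted p = 9.35e-22), and it passed with each replicate left out in turn and in DESeq2 (adjusted p = 0.0290). The adjusted p was 0.669 without the pairing. Cells with an Il10 UMI made up 4% ± 0.97 of the positive and 9.68% ± 6.24 of the negative side, against 0.569% of cluster 9, and numbered 27 and 55.

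Foxp3 fell as well, from 117, 40.3 and 30.2 CPM in negative cells to 15.5, 27.3 and 13.5 CPM in positive cells (log2 fold change -2.02 ± 0.25, SE; adjusted p = 2.27e-12). Replicate 1 stood apart, and without it the adjusted p was 0.688. Cells with a Foxp3 UMI were few on both sides, 4.40% ± 1.76 of positive and 9.78% ± 4.77 of negative cells, and 4.69% of cluster 9 also had one, so the positive side was at the level of that cluster.

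The comparison was repeated without the cells that held a Foxp3 UMI, a choice made after the data were seen. Il10 remained lower (-2.23 on the log2 scale, adjusted p = 2.58e-07). Izumo1r, the folate receptor 4 of regulatory and follicular T cells, which had fallen by 1.46 ± 0.24 (adjusted p = 4.17e-07), then had an adjusted p of 0.174. Over all genes, 23 were then higher and 36 lower, and 52 of the 111 calls stood. Of 9 regulatory T cell genes tested, 2 fell, Foxp3 and Il10, and 0 rose, with a median of -0.24.

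Chemokine receptors and gut homing genes moved mainly down: of 18 tested, 2 rose, Cxcr6 among them, and 8 fell, with a median log2 difference of -0.45. Of all tested genes, 0.689% rose and 0.905% fell. Ccr4, a receptor of type 2 and regulatory cells, was at 23.9, 13.6 and 50.7 CPM in positive and at 74.1, 49.8 and 80.5 CPM in negative cells (log2 fold change -1.35 ± 0.22, SE; adjusted p = 9.30e-07). It was lower in each pair, though the sides overlapped by 1 value, and it did not pass without replicate 1 (adjusted p = 0.0886).

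Ccr7, the lymph node homing receptor of naive and central memory cells, fell by 1.30 ± 0.27 (adjusted p = 0.000367), but not without replicate 2 (adjusted p = 0.131). Ccr8, found on type 2 and tissue regulatory cells, fell by 1.21 ± 0.25 (adjusted p = 0.000512), in 2 of 3 pairs, and did not pass without replicate 1 (adjusted p = 0.282) or replicate 3 (adjusted p = 0.241). The other falls were Ccr6, Cxcr3, Cxcr4 (-0.49 ± 0.14), the integrin chain Itga4 (-0.42 ± 0.12) and the oxysterol receptor Gpr183 (-0.35 ± 0.10).

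All 4 Th2 genes that fell, of 5 tested with a median of -1.21, were low in these cells. They were Il4, Ccr4, Ccr8 and Gata3, the type 2 transcription factor. Il4 had 45 UMIs in 12 positive cells and 78 UMIs in 24 negative cells, and replicate 3 held the highest negative sum, 106 CPM against 28.7 CPM. Its log2 fold change was -1.43 ± 0.28 (SE; adjusted p = 8.40e-05), with an adjusted p of 0.248 without replicate 3. Gata3 was at 40.0, 43.4 and 60.9 CPM in positive and 68.5, 61.7 and 101 CPM in negative cells (-0.69 ± 0.19, adjusted p = 0.0256). The call of Gata3 was lost without any 1 replicate (adjusted p = 0.534, 0.0641 and 0.193 without replicates 1, 2 and 3).

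Among 11 naive and central memory genes tested, 2 fell, Ccr7 and Tcf7, and 0 rose, with a median of -0.39. Tcf7, the factor TCF-1 of memory and stem-like T cells, was at 91.7, 91.7 and 82.8 CPM in positive and at 113, 150 and 136 CPM in negative cells (-0.51 ± 0.14, adjusted p = 0.0311). The sides did not overlap, but the adjusted p was 0.0586, 0.382 and 0.267 when replicates 1, 2 and 3 were left out in turn.

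The other genes of largest change belonged to no single list. Pxdc1, a PX domain protein, was at 24.5, 24.8 and 37.2 CPM in positive and at 55.4, 71.2 and 113 CPM in negative cells. The sides were apart, and the log2 fold change of -1.39 ± 0.22 (SE; adjusted p = 1.64e-07) stood in 18 of the 20 alternatives that tested it, among them the fit without pairing (adjusted p = 0.0182). Bcl2a1a, a survival factor of the BCL2 family, was at 31.7, 27.3 and 35.5 CPM in positive and at 9.38, 7.12 and 10.1 CPM in negative cells. It had the largest rise by the naming rule, 1.79 ± 0.35 (adjusted p = 8.90e-05), and missed the threshold without replicate 1 (adjusted p = 0.0624). Bcl2a1a has near-identical copies (Bcl2a1b and Bcl2a1d), among which reads can be split, so its level is uncertain.

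Stmn1, a tubulin regulator of cycling cells, rose by 1.37 ± 0.26 (adjusted p = 7.77e-05), but not without replicate 1 (adjusted p = 0.725). It was 1 of 12 cell cycle genes tested, of which no other passed. Gm46620, a predicted gene, and Acpp, an acid phosphatase, rose by 1.06 ± 0.31 and 0.81 ± 0.21. Acpp did not pass without replicate 1 (adjusted p = 0.695) or replicate 2 (adjusted p = 0.0595), and Gm46620 not without replicate 1 (adjusted p = 0.214) or replicate 3 (adjusted p = 0.813).

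Lgmn, the lysosomal protease legumain, fell by 1.45 ± 0.35 and not without replicate 1 (adjusted p = 0.975). Sp110, a nuclear body protein, fell by 1.17 ± 0.34 and passed in none of the fits that left out a replicate (adjusted p = 0.625, 0.0777 and 0.146). Socs3, the feedback inhibitor of cytokine receptors, was the inhibitory gene that fell of 11 tested. It was at 55.6, 54.6 and 59.2 CPM in positive and at 108, 99.7 and 108 CPM in negative cells, 2 tight groups, and its log2 fold change was -0.91 ± 0.16 (SE; adjusted p = 1.44e-05). Without replicate 1 Socs3 had an adjusted p of 0.0570.

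Of 17 genes of T cell receptor activation tested, Egr1 (0.40 ± 0.09) and Cd69 (0.26 ± 0.06) rose and Tnfrsf9 (-0.64 ± 0.17) fell, with a median of 0.028. Among 10 residency and egress genes, 3 rose and 2 fell. Rgs1, a regulator of chemokine receptor signalling in tissue T cells, rose in each pair (0.29 ± 0.04, adjusted p = 2.38e-08), also with each replicate left out. Of 17 transcription factors of effector fate, Zeb2 (0.48 ± 0.12) and Rbpj (0.38 ± 0.10) rose and 0 fell. Zeb2 passed in none of the fits that left out a replicate (adjusted p = 0.0742, 0.211 and 0.0779), nor Rbpj without replicate 1 (adjusted p = 0.706) or 2 (adjusted p = 0.0775).

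Several lists held few or no calls. Btg2, an early response gene, was the 1 rise among 17 genes of dissociation stress, and Fasl the 1 rise among 20 apoptosis regulators. Of 6 chemokines tested, Cxcl3 rose and Cxcl10 fell, and Il12rb2 was the 1 cytokine receptor of 17 to rise. Of 8 follicular helper genes, Izumo1r fell and 0 rose. None of 15 glycolysis, 26 oxidative phosphorylation and 14 class I antigen presentation genes passed in edgeR, with 0, 1 and 0 of them at an unadjusted p below 0.05. Of 20 interferon response genes tested, 1 fell, Isg15, and 0 rose, with a median of -0.070, and Isg15 had an adjusted p of 0.932 without replicate 1. The 83 ribosomal protein genes, a group picked after the values were seen, had 0 higher and 15 lower, with a median of -0.14.

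Some calls followed single clones or libraries. Trav9-2 and Trav16, alpha chain variable genes, rose by 1.51 ± 0.31 and 1.05 ± 0.26, with 38.3% and 59.5% of their UMIs on the positive side from 1 clone each. Trav9-2 is the variable gene of the largest clone of replicate 3, and it did not pass without that replicate (adjusted p = 0.520). Trav7-5 fell by 1.29 ± 0.35, with 48% of its negative-side UMIs from 1 clone, and had an adjusted p of 0.0851 without replicate 1 and 0.818 without replicate 3. Jchain, the plasma cell joining chain, named after its values were seen, was higher by 1.90 ± 0.29 with 134 CPM in the positive cells of replicate 1 and 14.2 to 33.5 CPM in the other sums. It was higher in 2 of 3 pairs and had an adjusted p of 0.962 without replicate 1, the library in which the sum of B and plasma cell markers stood out.

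Levels were also laid out by the number of Ifng UMIs in a cell, as description, with 460, 152, 218 and 293 cells at 0, 1, 2 to 4 and 5 or more. Nkg7 stood at 184 ± 22.5, 261 ± 60.9, 337 ± 64.5 and 376 ± 29.6 CPM (plain totals without Ifng, SD, n = 3 throughout), each mean above the one before. Ccr6 went from 73.7 ± 15.2 to 60 ± 8.21, 42.5 ± 27.3 and 26.1 ± 8.62 CPM, and Pxdc1 from 77.7 ± 29.3 to 47.8 ± 23.5, 36.0 ± 15.2 and 15.6 ± 4.81 CPM, although neighbouring steps overlapped in their SD. Il10 was lower in every class with an Ifng UMI, at 16 ± 14, 23.7 ± 3.55 and 26.1 ± 12.8 CPM, than at 0 UMIs, 90.3 ± 61.0 CPM.

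Il12rb2 in cells with 1 Ifng UMI, 25.5 ± 17.1 CPM, was no higher than at 0 UMIs, 39.4 ± 9.09 CPM, and reached 125 ± 82.6 and 138 ± 29.8 CPM in the higher classes. Il17a stood at 12055 ± 1139, 12370 ± 3063, 12571 ± 1106 and 13827 ± 1016 CPM, each mean above the one before, with SDs that overlapped. Median depth was 3802.5, 3733.5, 3982 and 4246 UMIs per cell across the 4 classes, lowest at 1 Ifng UMI and highest at 5 or more.

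**Figure D3:**
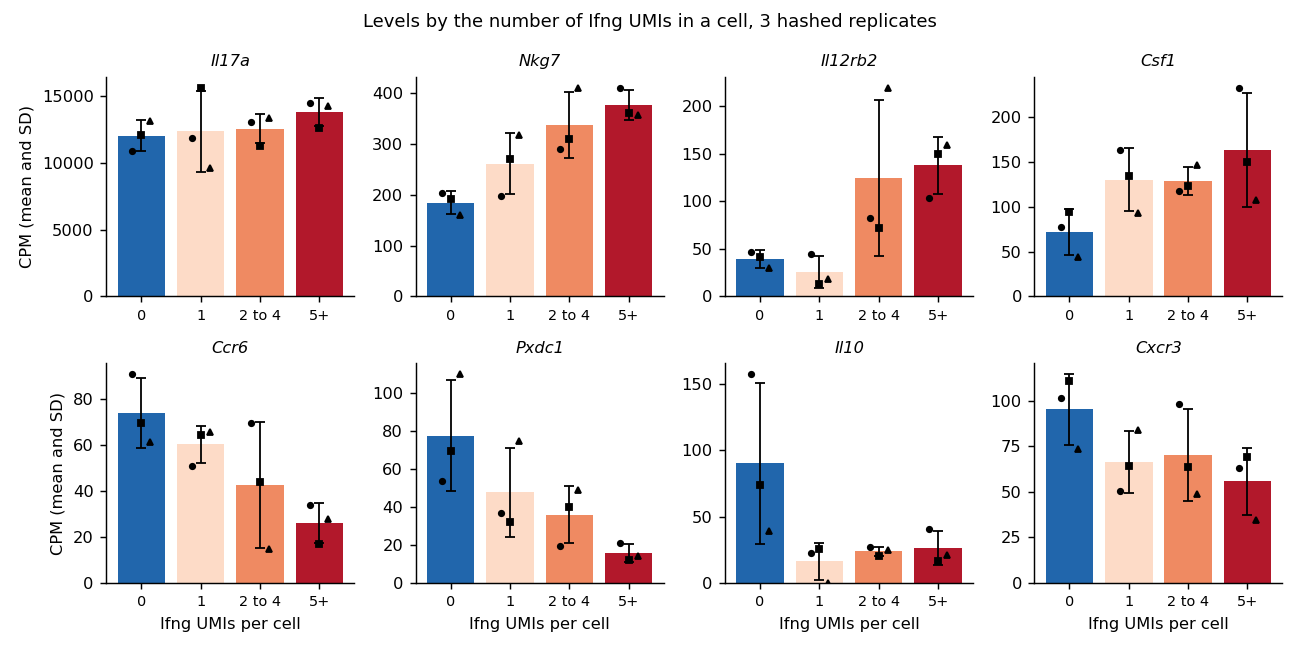
CPM of 8 genes in cells with 0, 1, 2 to 4 or 5 and more (5+) Ifng UMIs, as the mean (bars) and SD over 3 hashed replicates (circle, square and triangle for replicates 1 to 3). Nkg7 means climb from 184 to 376 CPM and Ccr6 means decline from 73.7 to 26.1 CPM. Il17a means rise from 12055 to 13827 CPM, with SDs that overlap.

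Cluster 6 of the same gate had a like share of Ifng-positive cells but more of the Th1 RNAs and less of the Th17 RNAs. On plain totals, Il17a was 12814 to 13447 CPM in Ifng-positive Th17-like cells against 990 to 1131 CPM in Ifng-positive cells of cluster 6, and Il17f 1549 to 1717 CPM against 141 to 344 CPM. Ccl5 was at 13.3 to 142 CPM against 427 to 1159 CPM, Cxcr3 at 48.3 to 71.8 CPM against 182 to 271 CPM, and Tbx21 at 51.7 to 73.8 CPM against 89.2 to 124 CPM. For these 5 genes the ranges did not overlap. Since clusters were built on these genes, the values are a description.

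Within cluster 6, Il12rb2 was at 148 to 252 CPM in its 519 Ifng-positive cells and at 30.5 to 71.8 CPM in its 469 Ifng-negative cells, and Nkg7 at 413 to 656 CPM and 237 to 300.7 CPM. Ccr6 there was at 24.3 to 47.8 CPM in positive and 51.3 to 98.4 CPM in negative cells. These 3 genes were thus ordered the same way by Ifng in cluster 6 as in the Th17-like cells. The sums of Il10 in cluster 6 were 35 to 60.6 CPM in positive and 71.7 to 141 CPM in negative cells.

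Most clonotypes of 2 or more cells straddled the Ifng split. A clonotype was defined by the same V and J genes and junctions of the first listed alpha and beta chains within a replicate. Cells with both receptor chains numbered 839 and fell into 384 clonotypes, of which 263 had 1 cell. Of the 121 with 2 or more cells, 71 had cells on both sides, 35 were wholly Ifng-positive and 15 wholly Ifng-negative. Of 33 clonotypes with 5 or more cells, 32 were on both sides. Their Ifng-positive share ran from 16.7 to 100%, with a median of 60%, and the clones printed above mark both ends.

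Seen from the cells, 53.0, 57.4 and 62.9% of Ifng-positive cells in replicates 1, 2 and 3 belonged to a clonotype that also held an Ifng-negative cell (57.8% ± 4.95, SD, n = 3). Of Ifng-negative cells, 40.9, 55.6 and 59.2% belonged to a clonotype with an Ifng-positive cell (51.9% ± 9.69). As shares of clonotypes, 30.1, 28.6 and 36.2% of those on the positive side and 26.4, 39.2 and 37.8% of those on the negative side were on both. These shares are no test, since the sides differ in cell number and a clone of 1 cell cannot be shared.

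Larger clones held a higher Ifng-positive share in replicate 1. There it was 40% of cells in 1-cell clonotypes, 65.6% in those of 2 to 4 cells and 71.2% in those of 5 or more. In replicate 2 the shares were 60.3, 62.9 and 68.7%, and in replicate 3 they were 50, 61.9 and 60.7%, so the step from 1 cell to 5 or more was upward in each replicate and smaller in the other two. The 39-cell TRAV16 clone alone held 35 positive cells of replicate 1 and 280 Ifng UMIs.

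**Figure D4:**
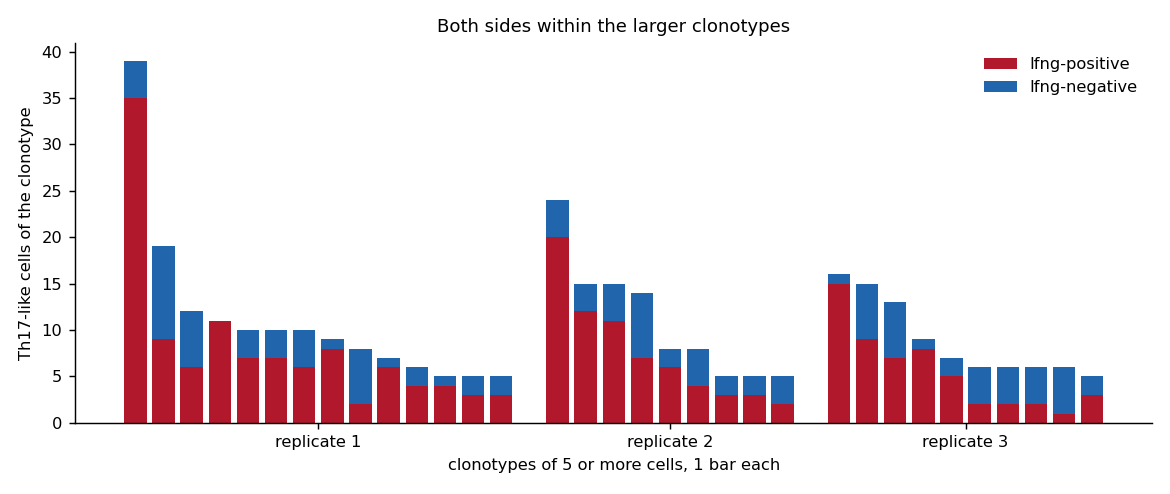
Number of Th17-like tdTomato-GFP- cells in each clonotype of 5 or more cells (1 bar each), by hashed replicate, split into Ifng-positive (red) and Ifng-negative (blue) cells. Of the 33 bars 32 carry both colours, and the tallest holds 39 cells.

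Both sides shared clones with cluster 6. In replicates 1, 2 and 3, 70.0, 58.8 and 54.3% of Ifng-positive cells and 44.3, 48.1 and 55.3% of Ifng-negative cells had a clonotype that also occurred in cluster 6. The positive share was higher in replicates 1 and 2 but not in replicate 3. With cluster 5, 30.4, 10.1 and 2.86% of positive and 24.4, 8.64 and 5.26% of negative cells shared a clonotype. Across replicates, 2 clonotypes occurred in 2 or more.

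When the comparison was kept to clonotypes with cells on both sides, 1 gene was higher and 1 lower in edgeR of 4355 tested, with 253 at an unadjusted p below 0.05. Nkg7 did not pass there (adjusted p = 0.285), nor did Csf1 (adjusted p = 0.0935). As values on plain totals, Nkg7 in these clones was at 323, 328 and 414 CPM in positive and at 246, 246 and 119 CPM in negative cells, and Csf1 at 205, 131 and 82.8 CPM against 71.1, 105 and 37.7 CPM. Tbx21 was at 81.7, 97.3 and 48.9 CPM against 25.9, 49.2 and 27.0 CPM. For Nkg7, Csf1 and Tbx21 the positive cells were higher in all 3 replicates. Csf2, at 26.7, 103 and 26.4 CPM against 58.2, 18.5 and 21.6 CPM, was lower in the positive cells of replicate 1. Il22, at 1162, 698 and 678 CPM against 595, 148 and 685 CPM, was not higher in replicate 3. Pxdc1 was at 10.0, 22.2 and 56.5 CPM in positive and 16.2, 0 and 48.5 CPM in negative cells of these clones and overlapped. Il10 was at 16.7, 22.2 and 0 CPM in positive and 45.3, 6.15 and 64.7 CPM in negative cells. It was thus lower in the positive cells of replicates 1 and 3 but higher in those of replicate 2.

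The same contrast within the tdTomato+GFP+ gate, in the same 5 clusters, with 921 Ifng-positive and 4744 Ifng-negative cells, called 32 genes higher (0.321%) and 21 lower (0.211%) of 9963 tested. Of these, 13 higher and 6 lower genes were also called the same way in the tdTomato-GFP- gate. That is 13 of 48 and 13 of 32 rises, and 6 of 63 and 6 of 21 falls. Of the tdTomato-GFP- calls tested there, 44 of 48 rises had a log2 fold change above 0 and 54 of 62 falls one below 0, where 49.4% of all genes lay above 0.

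Nkg7 rose by 1.12 ± 0.06 in that gate (adjusted p = 1.97e-12), Il12rb2 by 0.81 ± 0.09 (adjusted p = 9.73e-06), Csf1 by 0.85 ± 0.09 (adjusted p = 4.19e-05) and Tnf by 0.50 ± 0.11 (adjusted p = 0.0289). Tbx21, which had not passed before, rose there by 0.94 ± 0.19 (adjusted p = 0.0269). Ccr6 (-1.01 ± 0.15), Ccr7 (-1.38 ± 0.16), Ccr4 (-0.65 ± 0.09), Il4 (-0.57 ± 0.11) and Il10 (-0.55 ± 0.08) fell. Csf2 (0.42, adjusted p = 0.883), Il22 (1.76, adjusted p = 0.708) and Bcl2a1a (0.25, adjusted p = 0.991) did not pass there.

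**Figure D5:**
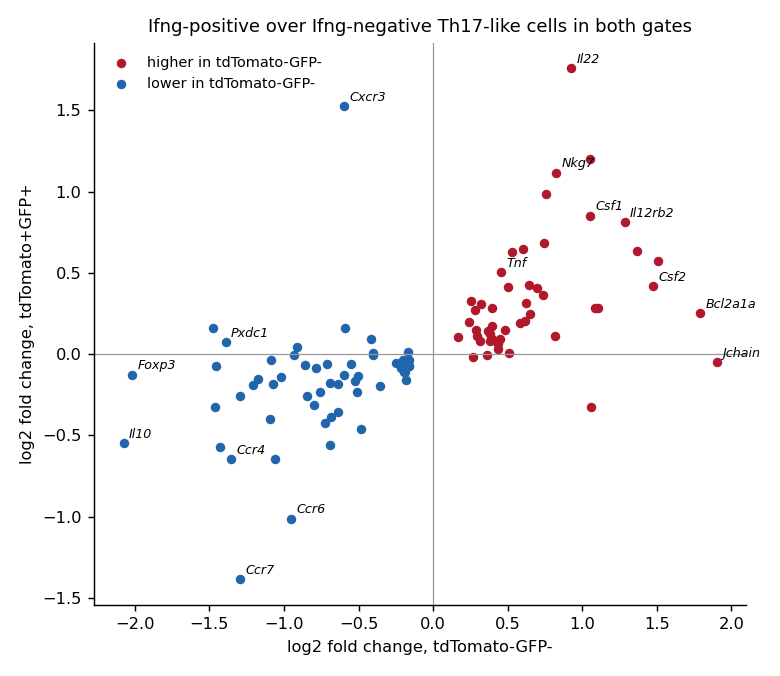
Log2 fold change of Ifng-positive over Ifng-negative Th17-like cells in the tdTomato-GFP- gate (x axis) and in the tdTomato+GFP+ gate (y axis) for the genes called in the tdTomato-GFP- gate (red higher, blue lower) and tested in both. Most points lie at the lower left or the upper right, and Cxcr3 stands apart at -0.60 and 1.53.

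The difference between the gates was tested with an interaction term over 8327 genes, of which 6 had a more positive Ifng contrast in tdTomato+GFP+ cells (0.0721%) and 1 a more negative one (0.0120%), 7 in all (0.0841%). Without the pairing 0 genes passed, with 346 at an unadjusted p below 0.05. Cxcr3 had opposite directions in the gates, while the adjusted p of Il10, given below, was smaller. Cxcr3 fell by 0.60 in the tdTomato-GFP- gate and rose by 1.53 ± 0.30 in the other (interaction 2.14, adjusted p = 0.000169). Its interaction did not pass without replicate 2 (adjusted p = 0.316). In the tdTomato+GFP+ cells its plain level was only 0, 18 and 18.1 CPM in positive and 1.38, 5.64 and 6.15 CPM in negative cells of replicates 1, 2 and 3.

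The fall of Il10 was larger in the tdTomato-GFP- gate (interaction 1.55, adjusted p = 1.25e-05), although not without replicate 1 (adjusted p = 0.628). Pxdc1 fell in the tdTomato-GFP- gate and was 0.07 in the other (interaction 1.46, adjusted p = 0.0395), not passing without replicate 2 (adjusted p = 0.990) or replicate 3 (adjusted p = 0.239). For the genes that led the rises, no difference between the gates was called: the interaction was 0.30 for Nkg7 (adjusted p = 0.781), -0.47 for Il12rb2 (adjusted p = 0.858) and -0.21 for Csf1 (adjusted p = 0.984), which does not show that they were equal.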

How the data were processed

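Single-cell RNA and receptor libraries of sorted colonic CD4 T cells were analysed from the deposited tables of 1 lane per gate. Raw UMI counts per gene and cell, cluster numbers, hashed replicates and receptor chains were used as the authors deposited them. The fraction of hashtag counts on a cell's main hashtag was also deposited by the authors and was not used here. Cell Ranger and Scanpy 1.7.2 with mm10 (GRCm38) are named per the submitters' processing notes, and the chemistry is given per the labels as 3′ or 5′ without saying which. Coordinates came from GENCODE M21.

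Counts were summed per hashed replicate and side and compared in edgeR 4.0.16 (R 4.3.3; TMM, filterByExpr minimum count 10, robust quasi-likelihood test, Benjamini-Hochberg adjustment over all tested genes, threshold 0.05), with the replicate as a block because both sides of a pair came from the same replicate. Same-replicate sums deviated together, with correlations of 0.152, 0.0927 and 0.147 against at most -0.0059 for other replicates. Ifng and the hashtag features were left out. Interaction terms used the same settings. DESeq2 1.42.0, limma 3.58.1, other filters, thinning to 2000 UMIs, matching and leaving out each replicate were alternatives. The fit was also run on simulated counts with the same spread for every gene, so that run is no check of the calls made here. Doublets were not called. The deepest 5% of cells were left out in 1 alternative. Descriptions used Python 3.11.15. Intervals cover counting error at the 95% level, and floors are 3 counts.

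Named genes were the 10 largest rises and 10 largest falls that passed, moved alike in all 3 pairs and reached 20 CPM on the higher side, plus 36 fixed genes and members of gene lists. Members and lists were chosen with earlier results of these data known. P-values rest on 3 hashed replicates and on spread estimates shared across genes. Some members of the gene lists are not reported here.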

Additional observations from a re-analysis of the deposited data

Results flagged for a closer look

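For 7 genes the Ifng contrast differed between the gates by the interaction term in edgeR (tdTomato+GFP+ minus tdTomato-GFP-, log2 scale). For Cxcr3 the difference was 2.14, for Il10 1.55, for Pxdc1 1.46 and for Ermn, a cytoskeletal protein gene, 1.46. Ermn had 66.7 to 113 CPM in positive and 60.8 to 113 CPM in negative tdTomato-GFP- cells, and 10.3 to 26.7 CPM against 5.29 to 8.43 CPM in tdTomato+GFP+ cells.

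The other 3 rest on sides with 0 or 1 UMI, so their fitted values are no measure of size. Il13, a type 2 cytokine (fitted difference 8.17), had 1 UMI in positive and 337 UMIs in 11 negative tdTomato-GFP- cells, and 92 and 545 UMIs in the other gate. Trav12-3, an alpha chain variable gene (7.93), had 0 UMIs, a floor of 0.995 CPM, in positive and 25 UMIs in 5 negative tdTomato-GFP- cells. Tcrg-V5, a gamma chain variable gene (-8.56), had 33 UMIs in 9 positive cells and 0 in negative cells, a floor of 1.54 CPM.

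None of the 7 passed without the pairing. When cells were thinned, Il13 still passed, while Cxcr3 (adjusted p = 0.0644), Il10 (adjusted p = 0.348), Pxdc1 (adjusted p = 0.533) and Ermn (adjusted p = 0.9504) did not. Ermn also did not pass without replicate 2 (adjusted p = 0.752) or replicate 3 (adjusted p = 0.108), and Tcrg-V5 (adjusted p = 0.503) and Trav12-3 (adjusted p = 0.671) not without replicate 1.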

How the results depend on the processing

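Of 22 alternatives, 6 were chosen after seeing the data. Without the replicate block, the pairing of sides, 3 genes were higher and 2 lower (against 48 and 63), and 0 in place of 7 differed between the gates. Other counts, higher and lower, were 1 and 1 in DESeq2, 18 and 13 with positive cells from 2 Ifng UMIs, 15 and 11 with cells thinned, 13 and 3 with sides also set from thinned counts, 19 and 16 with depth and cluster matched, 8 and 5 with cluster as strata, 4 and 3 with 1 cell per clonotype, 1 and 1 in clonotypes on both sides, 23 and 36 without cells with a Foxp3 UMI, and 0 and 0 in edgeR with cells counted in place of UMIs (198 at an unadjusted p below 0.05). Lower genes numbered 38 in clusters 1, 2 and 3 alone and 36 without likely doublets. Leaving out each replicate gave 16 to 42 higher and 19 to 54 lower genes, the fewest without replicate 1, and 8 to 13 gate differences. Gate differences were 29 with no low-count filter and 3 with cells thinned. Several of these settings tested fewer genes or cells; the cause of the other losses was not tested. Of the 111 calls, 40 stood in at least 11 alternatives. Of 1185 values of 59 named genes under alternatives, 797 kept direction and side of the threshold, 321 lost the call, 26 gained it and 41, of 14 genes, changed sign, 0 of them past the threshold in either setting. On the log2 scale, with each replicate left out in turn, Ccl4 ran from -0.86 to 0.90, Gzmb from -0.96 to 0.59, Il17f from -0.15 to 0.046, Il18r1 from -0.18 to 0.34, Maf from -0.033 to 0.11, Rora from -0.041 to 0.12, Satb1 from -0.18 to 0.047 and Stat4 from -0.046 to 0.20. Without the replicate block Ccl4 was -0.11. With cells thinned, Il17f was 0.036, Il1r1 -0.10, Il23r 0.025 and Satb1 0.029, and with sides also thinned, Ccl4 was -0.067, Il1r1 -0.20, Il23r 0.19, Rora -0.018 and Satb1 0.036. Without likely doublets, Ccl4 was -0.37, Il17f 0.093, Il18r1 -0.038 and Maf -0.0045. With 1 cell per clonotype, Ccl20 was -0.21, Il17f 0.44, Il23r 0.16 and Tbx21 -0.15. In clonotypes on both sides, Bhlhe40 was -0.018, Il18r1 -0.25, Maf -0.12 and Runx3 -0.0088. Without cells with a Foxp3 UMI, Ccl4 was -0.45, Il18r1 -0.00067 and Rora -0.0054. With cells counted, Il1r1 was -0.027, Il23r 0.0071, Satb1 0.11 and Stat4 -0.012. From 2 Ifng UMIs, Rora was -0.018. The Ifng-positive share was 48.9% at 2000 UMIs and 45.8% from 2 Ifng UMIs. The share of positive cells in clonotypes on both sides was 64.2% by beta chain alone and 55.2 to 60.1% with each replicate left out. Replicates 2 and 3, with 113 and 97 negative cells, limit low genes.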
